A study of Homo sapiens with 8 samples.

Results

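The APOBEC3 genes encode a family of cytidine deaminases, and the 7 human members, APOBEC3A, APOBEC3B (A3B), APOBEC3C, APOBEC3D, APOBEC3F, APOBEC3G and APOBEC3H, were taken by their symbols from the 19952 symbols listed for each library. RNA was sequenced from 8 libraries of 2 uveal melanoma (UVM) cell lines, 92.1 and MEL290, with 2 libraries in each of 4 groups. The 92.1 groups were shCtrl, which the study's methods describe as an empty vector, and shA3B, in which a short hairpin RNA against A3B was delivered in pGIPZ-TurboGFP-puro. The MEL290 groups were NC, a negative control, and A3B OE, in which full-length A3B was expressed from pHAGE-puro. By the study's methods, vectors were delivered by lentivirus and cells selected with puromycin. All 4 groups were grown in RPMI1640 with fetal bovine serum, and which of the hairpins entered the sequenced shA3B cells was not given in the sources used here. The measured value is FPKM, fragments scaled by transcript length and by the number mapped in the library, which is divided by length, so levels of different genes can be set side by side.

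APOBEC3 enzymes convert cytosine to uracil in single-stranded DNA and are best known for blocking retroviruses and retroelements. The uracil is removed by UNG and base excision repair or is copied as thymine, and A3B, which is found in the nucleus, is known as a source of C-to-T mutations at TpC sites in tumours. Each deaminase domain holds a zinc-binding motif in which a histidine and a pair of cysteines hold the metal and a glutamate takes part in catalysis.

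All 7 genes lie side by side on the plus strand of chromosome 22 in GRCh38. APOBEC3A comes first (chr22:38952741-38963184), followed by APOBEC3B (chr22:38982347-38992804), APOBEC3C (chr22:39014257-39020352), APOBEC3D (chr22:39021113-39033277), APOBEC3F (chr22:39040604-39055972), APOBEC3G (chr22:39077067-39087743) and APOBEC3H (chr22:39097224-39104067). In their canonical GENCODE release 44 transcripts, APOBEC3A, APOBEC3C and APOBEC3H encode 1 zinc motif and APOBEC3B, APOBEC3D, APOBEC3F and APOBEC3G encode 2, each within 1 coding exon. The coding DNA of 8 of these motifs is shown 5′ to 3′, on the plus strand of GRCh38, to show which members are identical there and which are not. Capitals mark the codons of the histidine, the glutamate and the 2 cysteines.
APOBEC3A, chr22:38961420-38961530, exon 3: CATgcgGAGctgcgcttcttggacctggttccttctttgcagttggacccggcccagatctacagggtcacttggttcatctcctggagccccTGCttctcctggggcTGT
APOBEC3B motif 2, chr22:38991365-38991475, exon 6: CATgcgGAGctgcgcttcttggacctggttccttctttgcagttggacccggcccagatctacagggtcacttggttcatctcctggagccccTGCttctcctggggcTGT
APOBEC3B motif 1, chr22:38985833-38985937, exon 3: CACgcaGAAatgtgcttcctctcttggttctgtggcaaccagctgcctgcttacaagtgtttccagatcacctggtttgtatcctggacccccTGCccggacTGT
APOBEC3F motif 1, chr22:39044962-39045066, exon 3: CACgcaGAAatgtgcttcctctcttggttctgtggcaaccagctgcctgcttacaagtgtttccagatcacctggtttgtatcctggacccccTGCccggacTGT
APOBEC3F motif 2, chr22:39052095-39052199, exon 6: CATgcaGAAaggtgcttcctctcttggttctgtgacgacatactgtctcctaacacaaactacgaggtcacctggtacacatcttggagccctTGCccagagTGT
APOBEC3C, chr22:39017787-39017891, exon 3: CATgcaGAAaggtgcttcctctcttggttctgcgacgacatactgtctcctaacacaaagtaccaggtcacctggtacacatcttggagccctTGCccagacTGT
APOBEC3G motif 2, chr22:39086312-39086416, exon 6: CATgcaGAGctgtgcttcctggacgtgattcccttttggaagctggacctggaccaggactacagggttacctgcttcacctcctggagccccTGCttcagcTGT
APOBEC3H, chr22:39101246-39101350, exon 3: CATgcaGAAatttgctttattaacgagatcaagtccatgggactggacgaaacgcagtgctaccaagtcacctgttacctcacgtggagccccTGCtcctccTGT

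The APOBEC3A motif and APOBEC3B motif 2 were identical at 111 of 111 bases, and APOBEC3B motif 1 and APOBEC3F motif 1 at 105 of 105. APOBEC3D motif 2 was identical to APOBEC3F motif 2 at 105 of 105 bases, and the APOBEC3C motif matched these at 101 of 105. Over their aligned residues, the closest proteins were APOBEC3A and APOBEC3B, with 85.9% of 199 identical, and APOBEC3D and APOBEC3F, with 80.2% of 373. APOBEC3B has 382 residues, so the first value covers only its part aligned to APOBEC3A. APOBEC3H stood farthest from the others, at 35.6% to 39.9%. Of all 150-base windows of the canonical transcripts, 8.61% of those of APOBEC3B, 6.2% of APOBEC3A, 5.2% of APOBEC3D, 4.03% of APOBEC3G and 2.99% of APOBEC3F were also present in another member, and 0% of those of APOBEC3C and APOBEC3H. With 75-base windows the shares were 26.8% for APOBEC3B, 18.5% for APOBEC3A, 11.6% for APOBEC3D, 9.66% for APOBEC3G and 7.98% for APOBEC3F. They were 0.272% for APOBEC3C and 0% for APOBEC3H. How the authors' software divided fragments that fit several members is not given in the sources used here, so a low value of one member beside a high value of a close relative is uncertain.

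The libraries held between 11389 and 11524 genes with at least 1 FPKM and a rough depth, estimated from low FPKM values, of 17.4 to 32 (×1e6 fragments, with NC at 17.4 and 20.7 and A3B OE at 27.5 and 22.9), and the sources do not say whether replicates were separate cultures. The 92.1 libraries carried the melanocyte programme, with 8 of 8 marker genes at 1 FPKM or more and a summed level of 7116 to 8713 FPKM. MEL290, labelled as uveal melanoma too, did not. In its libraries 1 or 2 of the 8 markers reached 1 FPKM, the sum was 15.2 to 20.7 FPKM, most of it MITF, and SOX10 was listed at 0 in both NC libraries and in 1 of 2 A3B OE libraries. KRT8, an epithelial keratin, stood at 907 to 1295 FPKM in MEL290 and at 0.0658 to 0.347 FPKM in 92.1. KRT18 was high in MEL290 too, but the epithelial markers EPCAM, CDH1 and KRT19 were not. Their means were 0, 0.286 and 0.524 FPKM in NC and 0.0640, 1.22 and 0.393 FPKM in A3B OE. Fibroblast markers summed to 44.1 to 60.7 FPKM in MEL290, mostly COL1A1 and PDGFRB, and to 5.56 to 7.87 FPKM in 92.1, where LUM was higher. In every library only 2 of these 6 markers reached 1 FPKM. In MEL290 the group means of COL1A2, COL3A1, DCN and LUM were at most 0.178 FPKM. Markers of immune cells, in which several APOBEC3 genes are known to be high, summed to 0.0511 to 0.462 FPKM in 92.1 and 1.36 to 3.04 FPKM in MEL290, of 10 genes with at most 1 at 1 FPKM or more.

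A3B was the member that the hairpin and the vector were aimed at. Its level in 92.1 was 35.9 and 32.3 FPKM with shCtrl but 1.98 and 2.37 FPKM with shA3B. In MEL290 it was at 2.67 and 2.19 FPKM in NC and at 28.4 and 27.5 FPKM in A3B OE. The groups of neither line overlapped, and the low groups of both lines lay in the same range. In bulk RNA, fewer cells with a transcript and less of it per cell cannot be told apart, and FPKM per symbol does not separate A3B transcripts of the cell's own gene from those of the vector.

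**Figure D1:**
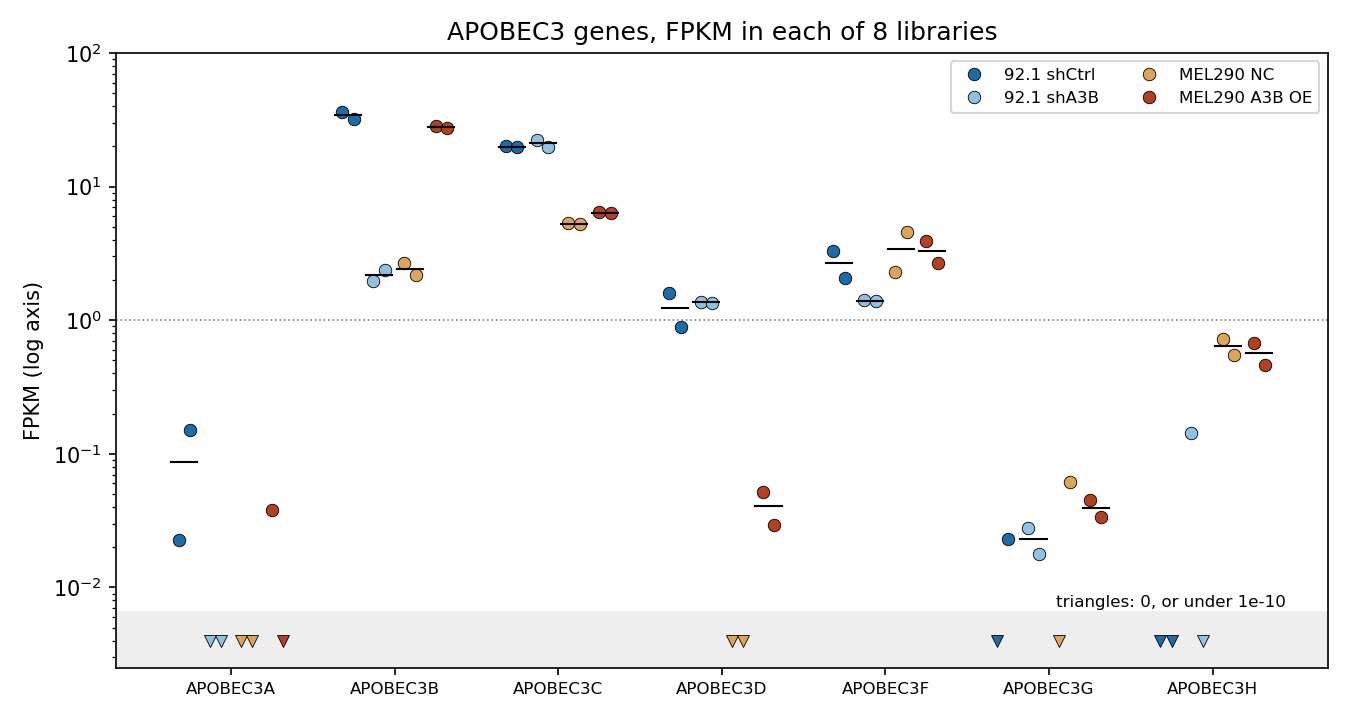
FPKM of each APOBEC3 gene on a log axis in the 8 libraries, coloured by group, with a short line at the mean where both libraries of a group were above 0; triangles at the foot stand for values listed at 0 or under 1e-10, and the dotted line marks 1 FPKM. APOBEC3B spans from 1.98 to 35.9 FPKM between groups, while APOBEC3C separates the cell lines and APOBEC3A and APOBEC3G stay low throughout.

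With depletion in 92.1, mean A3B fell from 34.1 ± 2.56 to 2.18 ± 0.278 FPKM (SD, n = 2 each), a ratio of 15.7. On the log2(FPKM + 1) scale, the difference was -3.47 (standard error 0.15, 95% interval -3.81 to -3.13, limma adjusted p = 2.4e-06). A3B was called and the other 3 members tested were not, in a comparison in which 0.00862% of the 11605 genes tested passed, which was A3B alone. The call depends on the filter on low values. Without it, over more genes, the difference was the same and the limma adjusted p was 0.34. Among all symbols, A3B ranked above 87.7% and 86.2% in the shCtrl libraries and above 46.6% and 47.6% in the shA3B libraries.

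With overexpression in MEL290, the mean of A3B went up 11.5 times, from 2.43 ± 0.341 to 27.9 ± 0.644 FPKM (SD, n = 2 each). The log2(FPKM + 1) difference was 3.08 (standard error 0.12, 95% interval 2.78 to 3.38, limma adjusted p = 0.00078). Here too A3B was called and the other 2 members tested were not, beside 17.8% of the 11611 genes tested. A3B ranked above 49.3% and 47.7% of symbols in NC and above 84.9% and 84.8% in A3B OE.

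Ordered by mean level, A3B ran from shCtrl through A3B OE and NC to shA3B. The overexpressed level of MEL290 lay just under the level of the 92.1 control, with both A3B OE libraries below both shCtrl libraries, a ratio of 1.22. The log2 difference of A3B OE from shCtrl was -0.28 (95% interval -0.57 to 0.01, limma adjusted p = 0.077), not called, in a comparison in which 73.8% of all genes tested were. NC and shA3B overlapped, with a log2 difference of shA3B from NC of -0.11 (95% interval -0.40 to 0.18, limma adjusted p = 0.45), where 73.6% of all genes were called. Of the steps between neighbours in this order, the step from A3B OE down to NC was called, and the other 2 were not called.

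**Figure D2:**
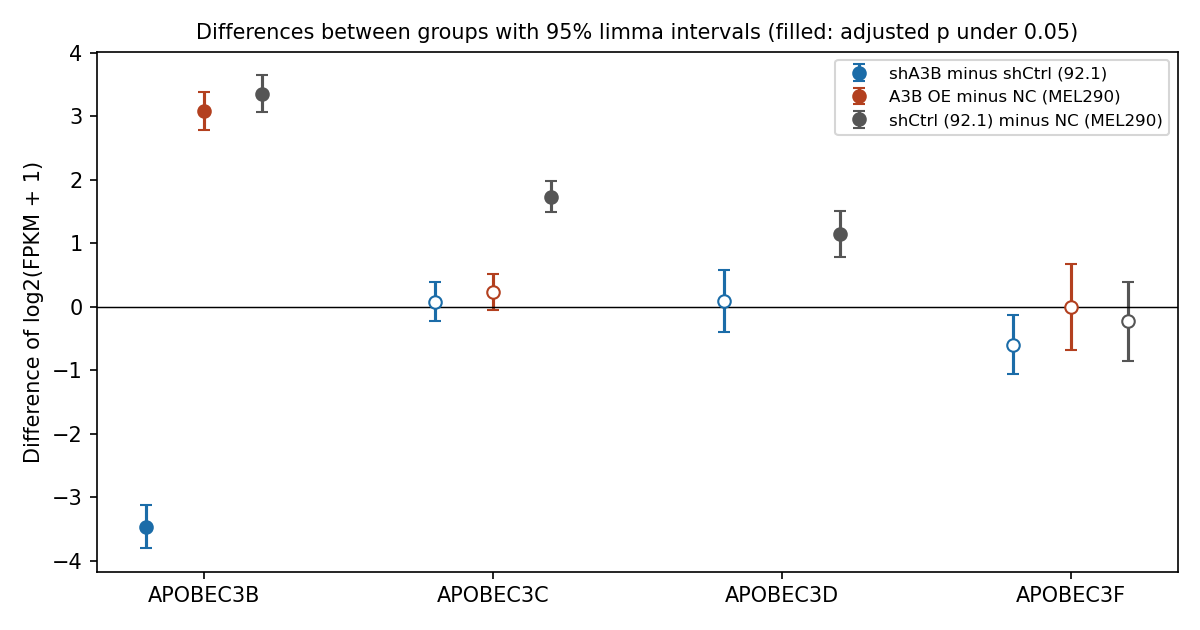
Differences of log2(FPKM + 1) between groups for the 4 APOBEC3 genes that passed the filter, with 95% limma intervals, filled where the adjusted p was under 0.05. In both within-line comparisons only APOBEC3B is filled, at -3.47 and 3.08, and between the control cells of the lines APOBEC3B, APOBEC3C and APOBEC3D are filled and APOBEC3F is not; APOBEC3D was not tested in MEL290 and passed the filter between the lines only through 92.1.

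APOBEC3C, a single-domain enzyme that is expressed in many cell types, differed between the cell lines. It was at 19.98 and 19.86 FPKM in shCtrl and at 22.4 and 19.8 FPKM in shA3B, and these groups overlapped. In MEL290 it was at 5.37 and 5.21 FPKM in NC and at 6.43 and 6.35 FPKM in A3B OE, with both A3B OE libraries above both NC libraries. The log2 difference was 0.08 in 92.1 (95% interval -0.23 to 0.39, limma adjusted p = 1) and 0.23 in MEL290 (95% interval -0.06 to 0.52, limma adjusted p = 0.23), and neither was called.

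Between the control cells, APOBEC3C was 3.77 times higher in shCtrl than in NC by mean FPKM. The log2 difference was 1.73 (standard error 0.11, limma adjusted p = 1.6e-06), and A3B (log2 difference 3.36, limma adjusted p = 8.9e-08) was higher as well, in a comparison in which 74.9% of the 12697 genes tested were called. APOBEC3D had a log2 difference of 1.15, from which nothing is read, since it passed the filter only through 92.1 and was listed at 0 in both NC libraries. Cell line and vector cannot be told apart in this comparison.

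APOBEC3D and APOBEC3F encode 2 deaminase domains and are known for acting on retroviruses. APOBEC3D was at 1.60 and 0.888 FPKM in shCtrl and at 1.36 and 1.36 FPKM in shA3B. It was listed at 0 in both NC libraries and reached 0.0517 and 0.0296 FPKM with A3B OE. In 92.1 the shA3B values lay between those of the control libraries (log2 difference 0.09, 95% interval -0.39 to 0.57, limma adjusted p = 1). In MEL290 the gene stayed below the filter and was not tested, and its A3B OE values were worth about 3.3 and 1.6 fragments at the rough depth.

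APOBEC3F was at 3.28 and 2.09 FPKM in shCtrl and at 1.41 and 1.39 FPKM in shA3B, so both depleted libraries lay below both controls. The log2 difference was -0.60 (95% interval -1.06 to -0.13), with an unadjusted limma p of 0.016 and an adjusted p of 1, and the gene was not called. In MEL290 it was at 2.28 and 4.56 FPKM in NC and at 3.90 and 2.69 FPKM in A3B OE, overlapping, with a log2 difference of -0.01 (95% interval -0.69 to 0.67, limma adjusted p = 0.99). The comparison of shA3B with NC crosses cell line and vector, which cannot be told apart, and 73.6% of all genes were called in it. There APOBEC3F was lower in shA3B by a log2 difference of -0.83 (95% interval -1.44 to -0.21, limma adjusted p = 0.021). That call was lost without the filter (adjusted p = 0.061), without shA3B replicate 1 (0.075), without shA3B replicate 2 (0.078) and without NC replicate 2 (0.15). APOBEC3F shares motif 1 with A3B base for base, and the part of shared fragments in these values was not tested.

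The remaining members were close to 0. APOBEC3A, an interferon-induced enzyme of myeloid cells, was at 0.0227 and 0.150 FPKM in shCtrl, under 1e-10 in both shA3B libraries, listed at 0 or under 1e-10 in both NC libraries, and with A3B OE 0.0382 FPKM in one library and under 1e-10 in the other. The 3 values above 1e-10 were worth about 0.71, 4.4 and 1.2 fragments at the rough depth, too few to order the libraries, and A3B carries the APOBEC3A motif base for base, so their origin cannot be told apart. Without the filter, the log2 difference of APOBEC3A was -0.12 in 92.1 (95% interval -0.31 to 0.07) and 0.03 in MEL290 (95% interval -0.06 to 0.12), and neither was called by limma.

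APOBEC3G, which blocks HIV and prefers CpC sites, did not exceed 0.0614 FPKM in any library and was listed at 0 in shCtrl replicate 1 and NC replicate 1. APOBEC3H was listed at 0 in both shCtrl libraries and in shA3B replicate 2 and was at 0.144 FPKM in shA3B replicate 1. In MEL290 it was at 0.728 and 0.545 FPKM in NC and at 0.679 and 0.463 FPKM in A3B OE, above all 4 libraries of 92.1. The NC values were worth about 10 and 9.3 fragments at the rough depth. Without the filter the log2 difference of shCtrl from NC was -0.71 (95% interval -0.95 to -0.46, limma adjusted p = 0.0015). Cell line and vector cannot be told apart in this comparison, and with the filter 74.9% of all genes tested were called in it. All of these APOBEC3H levels were below 1 FPKM.

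Within each line, the summed FPKM of the 7 members was higher where A3B was higher. The sum was 60.8 and 55.3 FPKM in shCtrl, 27.4 and 25.0 FPKM in shA3B, 11.04 and 12.56 FPKM in NC, and 39.5 and 37.1 FPKM in A3B OE. Without A3B it was 23.9 ± 1.32 FPKM in shCtrl and 24.0 ± 1.98 FPKM in shA3B, and 9.37 ± 1.42 FPKM in NC and 10.4 ± 1.12 FPKM in A3B OE (SD, n = 2 each), so the remainder overlapped within each line. The family's make-up changed accordingly. A3B held 59.1% and 58.4% of the sum in shCtrl and 7.24% and 9.51% in shA3B, where APOBEC3C held 82% and 79.4%. In MEL290, A3B went from 24.2% and 17.4% in NC, where APOBEC3C was the leading member, to 71.8% and 74.2% in A3B OE.

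**Figure D3:**
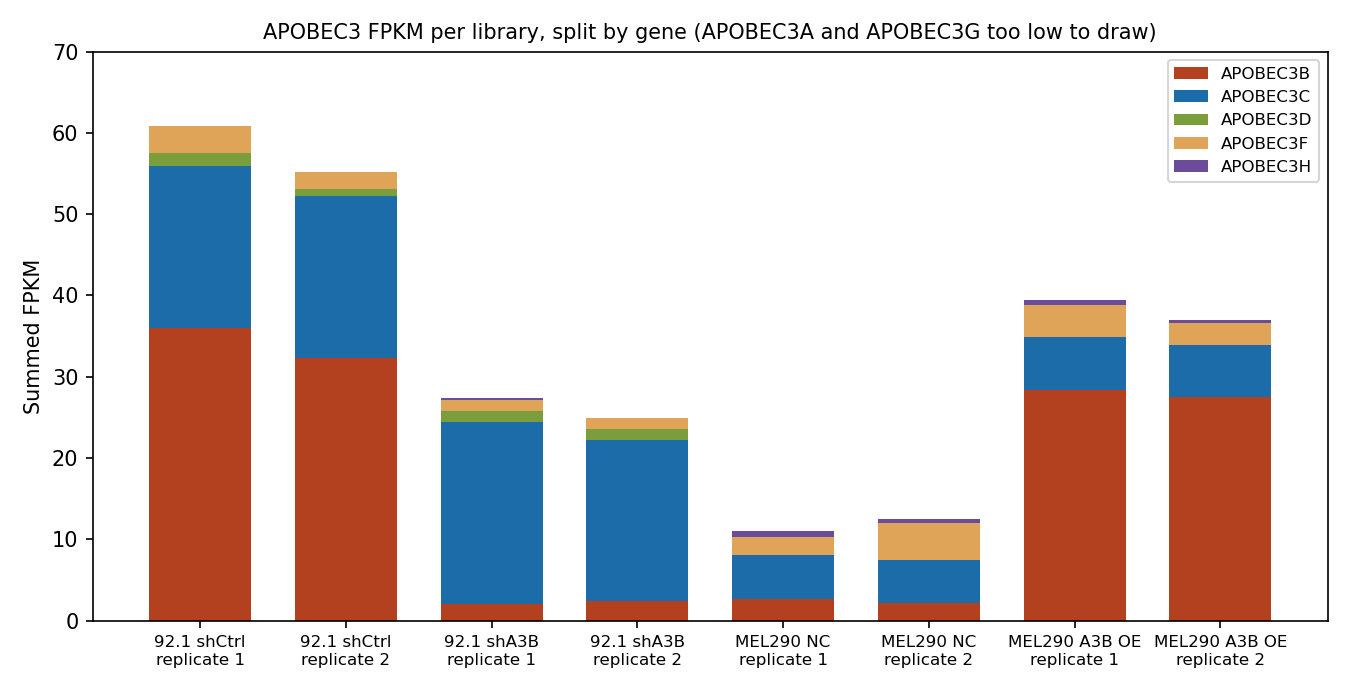
Summed FPKM of the APOBEC3 genes in each library as stacked bars from 0, one colour per gene, with APOBEC3A and APOBEC3G too low to draw. The APOBEC3B segment shrinks from the shCtrl to the shA3B bars and grows from the NC to the A3B OE bars, while the APOBEC3C segment is larger in all 4 bars of 92.1 than in those of MEL290.

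The effects of the 2 lines were also set against each other in 1 fit over all 8 libraries, by taking the effect of shA3B away from the effect of A3B OE. A3B differed by 6.55 on the log2 scale (95% interval 6.14 to 6.96, limma adjusted p = 3.2e-06), and it was the 1 member called of 4 tested, beside 4.4% of all genes. The differences of APOBEC3C (0.15) and APOBEC3F (0.59, 95% interval -0.28 to 1.46) were not called. That of APOBEC3D (-0.03) was not called either, but nothing is read from it. APOBEC3D passed the filter only through the shCtrl and shA3B libraries. It was listed at 0 in both NC libraries and reached at most 0.0517 FPKM in A3B OE. Line, vector and direction of the A3B change cannot be told apart in it.

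The genes on both sides of the cluster were also compared. In 92.1, 0 of 16 listed neighbours on 22q13.1 were called, and the largest difference was that of SYNGR1 (log2 difference -0.31). In MEL290, 1 was higher and 2 were lower of 14 tested, beside 17.8% of all genes called. CBX6, the Polycomb gene next to APOBEC3A, was at 26.6 and 26.1 FPKM in NC and at 16.4 and 15.2 FPKM in A3B OE (log2 difference -0.70, limma adjusted p = 0.0068). KDELR3, an endoplasmic reticulum retention receptor, was lower (-0.65, limma adjusted p = 0.0073) and SUN2, a nuclear envelope protein, higher (0.59, limma adjusted p = 0.017). SUN2 lost its call without A3B OE replicate 1 (adjusted p = 0.066) and without the filter (0.066). CBX7, the Polycomb gene that follows APOBEC3H among the neighbours listed, was at 4.67 and 4.27 FPKM in NC and at 4.54 and 3.69 FPKM in A3B OE, overlapping and not called. The neighbours' median difference was -0.06, beside 0.00 over all genes tested.

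**Figure D4:**
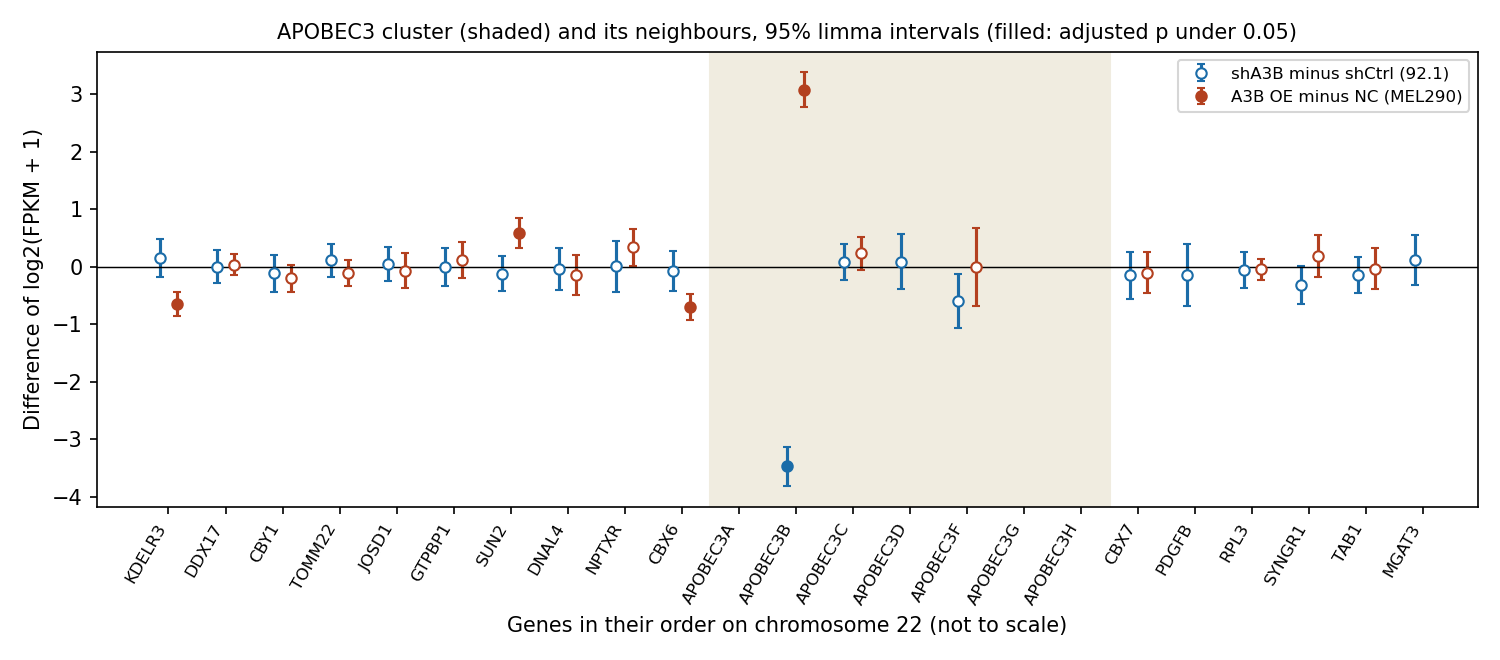
Differences of log2(FPKM + 1) with 95% limma intervals for the APOBEC3 genes (shaded) and their neighbours, in gene order along chromosome 22 and not to scale, in 92.1 and MEL290; filled points had an adjusted p under 0.05 and genes below the filter have no point. The APOBEC3B points at -3.47 and 3.08 stand far outside the range of the neighbours, of which CBX6, KDELR3 and SUN2 are filled in MEL290.

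APOBEC3B-AS1 is annotated on the opposite strand over the last part of A3B (chr22:38991559-38998209), and counting by strand was not stated, so fragments of the pair cannot be told apart. The genes whose log2(FPKM + 1) values ran most like A3B over the 8 libraries were FZD8 (Pearson r = 0.89), GFOD1 (0.885), PWP1 (0.869), NIF3L1 (0.868) and HDGF (0.866). Their range was narrow beside that of A3B, as with HDGF at group means of 147 to 185 FPKM. For APOBEC3C the closest were COL6A1, VLDLR and RHOBTB2, each at 0.999, and for APOBEC3F RNF31 (0.941), NBDY (0.917) and TTC39A (0.909). These are descriptions over 8 libraries that share a cell line and a vector in pairs.

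The relatives outside the cluster were not called in either within-line comparison. APOBEC1, an RNA editing enzyme, was listed at 0 in all 8 libraries. Of 13 relatives and other deaminases, 7 were tested in 92.1 and 8 in MEL290, with the largest differences for the tRNA deaminase subunits ADAT3 in 92.1 (log2 difference -0.41, limma adjusted p = 1) and ADAT2 in MEL290 (-1.18, limma adjusted p = 0.070). ADAT2 passed when NC replicate 1 (limma adjusted p = 0.0014), NC replicate 2 (0.021) or A3B OE replicate 2 (0.033) was left out.

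Genes that process the uracil that A3B makes were listed as 14 genes, all tested. In 92.1, 0 were called, and the largest difference was that of the glycosylase MBD4 (log2 difference 0.22). In MEL290, 6 were higher and 1 was lower in A3B OE, beside 17.8% of all genes called, with a median of 0.23 against 0.00 over all genes. LIG1, a DNA ligase of replication and repair, was at 14.9 and 15.3 FPKM in NC and at 29.3 and 27.6 FPKM in A3B OE (log2 difference 0.87, limma adjusted p = 0.0037). XRCC1, a repair scaffold, rose by 0.70 (limma adjusted p = 0.0073), PARP1, which senses strand breaks, by 0.63 (0.023), the flap nuclease FEN1 by 0.57 (0.016) and DUT, which removes dUTP, by 0.43 (0.038). TDG, a thymine and uracil glycosylase, was the 1 that fell (-0.52, limma adjusted p = 0.027). UNG, named after its values were seen, was also called higher (log2 difference 0.42). It was at 19.7 and 18.0 FPKM in NC and at 27.1 and 24.0 FPKM in A3B OE. The UNG call was lost without the filter (limma adjusted p = 0.098) and with every library left out except NC replicate 1. The count of 7 was 2 without the filter, 2 when A3B OE replicate 1 was left out, and 4 when A3B OE replicate 2 or NC replicate 2 was. LIG1 and XRCC1 were called whichever library was left out. PARP1 and FEN1 lost the call without A3B OE replicate 1, and TDG and DUT with every library left out except NC replicate 1.

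Genes known to act on A3B transcription or on the pathways upstream of it (NF-kB, DREAM, E2F and p53) were listed as 28, and 28 were tested in 92.1 with 0 called, and the largest difference was that of CDKN1A (log2 difference 0.35). In MEL290, 5 were higher and 1 was lower of 26, beside 17.8% of all genes called, with a median of 0.12 against 0.00. MYBL2, a cell cycle transcription factor, was at 11.2 and 10.3 FPKM in NC and at 26.3 and 22.8 FPKM in A3B OE (log2 difference 1.12, limma adjusted p = 0.0035). PRKCA, a protein kinase C, rose by 0.94 (limma adjusted p = 0.0036), FOXM1, a mitotic transcription factor, by 0.89 (0.0036), the pocket protein RBL1 by 0.68 (0.026) and the NF-kB inhibitor NFKBIA by 0.40 (0.044). CDKN1A, which encodes the cell cycle inhibitor p21, was at 371 and 391 FPKM in NC and at 194 and 185 FPKM in A3B OE (-1.004, limma adjusted p = 0.0016). RBL1 lost its call without either A3B OE library and NFKBIA with any library left out, and both lost it without the filter. Both CDKN1A groups were far above the 16.6 to 32.4 FPKM of the 92.1 libraries.

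Interferon induces several APOBEC3 genes. Of 28 interferon genes, 21 were tested in 92.1 with 0 called, the largest difference being that of IRF9 (log2 difference -0.40). In MEL290, 7 were higher and 1 was lower of 22, beside 17.8% of all genes called, with a median of 0.24 against 0.00. IRF1, an interferon response factor, was at 3.22 and 2.67 FPKM in NC and at 8.88 and 8.40 FPKM in A3B OE (log2 difference 1.29, limma adjusted p = 0.0037). The antiviral gene OAS3 rose by 1.18 (limma adjusted p = 0.017), and IFIT3 by 0.96 (0.011), IFI44 by 0.71 (0.016) and IFIT1 by 0.67 (0.030). IFIT2 was also among the 7 (log2 difference 0.61, limma adjusted p = 0.039). With a mean of 0.914 FPKM in NC and 1.93 FPKM in A3B OE, it passed the filter only through A3B OE, so nothing is read from its call. The 1 called lower was the ubiquitin-like gene ISG15, named after its values were seen, at 33.8 and 34.3 FPKM in NC and at 23.4 and 22.8 FPKM in A3B OE (log2 difference -0.54, limma adjusted p = 0.010). It was called whichever library was left out, but not with all 8 libraries in 1 fit (adjusted p = 0.19). The count of 8 was 3 without the filter and 3 when either A3B OE library was left out. IRF1 was called whichever library was left out. OAS3, IFI44 and IFIT1 lost the call without either A3B OE library, IFIT3 without A3B OE replicate 2 and IFIT2 without NC replicate 1, while it fell below the filter when either A3B OE library was left out. Beside the 3 lists, the summed level of the epithelial markers was 2547 and 2581 FPKM in NC and 1897 and 1679 FPKM in A3B OE. Nearly all of this sum was KRT8 and KRT18. The means of the low markers EPCAM and CDH1 were higher in A3B OE and that of KRT19 was lower. CDH1 was at 1.22 ± 1.30 FPKM in A3B OE and KRT19 at 0.524 ± 0.557 FPKM in NC (SD, n = 2 each). With an SD above the mean, neither is read as a difference. KRT18 was lower by a log2 difference of -0.66 (limma adjusted p = 0.0041) and KRT8 by -0.40 (0.023, but 0.098 without the filter and 0.073 without the trend). The part of this keratin difference in the lists was not tested. In the test of the difference between the lines, 1 of 14 uracil genes (LIG1), 3 of 28 regulators (MYBL2, FOXM1 and CDKN1A), 3 of 24 interferon genes (IRF1, IFIT3 and IFI44) and 1 of 16 neighbours (KDELR3) were called, beside 4.4% of all genes, and for the rest a difference between the lines was not shown. Of these 8 calls, those of IFIT3 and IFI44 were lost with any of the 8 libraries left out, that of MYBL2 only without A3B OE replicate 1, and the others with 6 or 7 of the 8.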

How the data were processed

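The authors made paired-end libraries from total RNA, mapped them with STAR (GRCh38) and used Cufflinks for FPKM, and deposited 1 table of FPKM per library. Versions were not given in the sources used here. Differential testing by the study started from reads and was not used.

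Groups came from the sample titles. Values were tested as log2(FPKM + 1) with limma 3.58.1 (lmFit, eBayes with a trend) in R 4.3.3, for genes with FPKM of at least 1 in at least 2 libraries of the fit, over all such genes, with p-values adjusted by Benjamini-Hochberg and called under 0.05. Each within-line comparison used its own 4 libraries, and comparisons between lines used all 8. The log2(FPKM + 1) scale understates changes of low genes. With 2 libraries against 2, an exact permutation test of 1 value cannot give a p below 0.33, and where replicates are not separate cultures the p-values measure only the spread between libraries. FPKM holds no counts, so no counting interval is given. A value of exactly 0 can be a failed estimate, and values above 0 and under 1e-10 cannot be whole fragments.

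Positions, coding sequence and transcripts came from GENCODE release 44 and GRCh38. Proteins were translated and aligned with Biopython 1.88, and motifs were found by pattern in the translations. Named genes were the members, CBX6 and CBX7, up to 6 called genes of each fixed list (or the gene with the largest difference where none was called), the genes most like APOBEC3B, APOBEC3C and APOBEC3F, and the genes of cell type checks. The members, lists and tests were chosen with earlier results of these data known. The test was checked on simulated data. Alternatives were other pseudocounts, filters, scalings and variance models, a replicate block, all 8 libraries in 1 fit, and each library left out.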

Additional observations from a re-analysis of the deposited data

Results flagged for a closer look

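The genes listed here had a different effect of A3B OE in MEL290 than of shA3B in 92.1, by the test of the difference itself (limma, 1 fit over all 8 libraries, adjusted p under 0.05), and line, vector and direction cannot be told apart. For APOBEC3B, at which both vectors were aimed, the difference was 6.55 on the log2(FPKM + 1) scale. LIG1 differed by 0.92, MYBL2 by 1.20, FOXM1 by 0.85 and CDKN1A by -1.36. IRF1 differed by 1.20, IFIT3 by 1.00 and IFI44 by 0.81. KDELR3 differed by -0.80, and the keratin KRT18 by -0.91. The KRT18 call was lost with 5 of the 8 libraries left out in turn, namely shA3B replicate 2 and each of the 4 MEL290 libraries. Those of IFIT3 and IFI44 were lost with any of the 8 left out. LIG1, CDKN1A, IRF1 and KDELR3 lost theirs with 7 of the 8, FOXM1 with 6 and MYBL2 with 1. The APOBEC3B call was kept throughout. Groups of 2 libraries were not tested for single libraries that stand apart.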

How the results depend on the processing

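APOBEC3B kept its direction under every alternative run in 92.1, in MEL290 and in the difference between them, and its call under all except the fit without a filter in 92.1 (adjusted p = 0.34, log2 difference -3.47), where 0 genes and 0 members were called and the cause was not tested. In 92.1 the 1 gene called became 2 with a filter at 0.1 FPKM, 2 without the trend, 37 with the replicate block, and 2 to 9 with 1 library left out. In MEL290 the 2065 genes called became 915 without a filter, and 809 to 1979 with 1 library left out, where the A3B OE libraries moved it (809 without replicate 2, 888 without replicate 1). The difference between the lines went from 559 genes to 328 with at least 1 FPKM in every library, 223 with the replicate block, and 36 to 286 with 1 library left out, so every library moved it. For A3B OE against shCtrl, 2 members were called, APOBEC3C and APOBEC3D, beside 73.8% of all genes tested. APOBEC3D, at 0.0517 and 0.0296 FPKM in A3B OE, passed the filter only through 92.1, so nothing is read from its call. With at least 1 FPKM in every library, APOBEC3D was not tested and 1 member was called.

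Without APOBEC3B, the difference in summed FPKM was 0.0430 in place of -31.92 for shA3B minus shCtrl, and 0.980 in place of 26.49 for A3B OE minus NC. The other changes of sign were of values not called. APOBEC3F in MEL290 was 0.0050 with a pseudocount of 0.1, 0.0162 with upper quartile scaling, and -0.387 to 0.375 with 1 library left out. Over the libraries left out, APOBEC3F ran from -0.613 to 0.149 for shCtrl against NC and from -0.0099 to 0.462 for A3B OE against shCtrl. In 92.1, APOBEC3C ran from -0.0068 to 0.164, APOBEC3D from -0.139 to 0.321, CBX6 from -0.263 to 0.115 and CBX7 from -0.334 to 0.0301. CBX7 ran from -0.220 to 0.0185 in MEL290 and from -0.131 to 0.233 in the difference, where APOBEC3D ran from -0.263 to 0.196 and was 0.316 with a pseudocount of 0.1.

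Replicate numbers were not shown to pair libraries. The correlation of same-numbered deviations was 0.19 for 92.1 and -0.029 for MEL290, with 2 pairs in each line. With the replicate block APOBEC3B was called in 92.1, in MEL290 (log2 difference 3.08, limma adjusted p = 0.0037) and in the difference (APOBEC3B 6.55, limma adjusted p = 0.00066). Among the list genes, the replicate block ended the calls of NFKBIA (adjusted p = 0.077), IFIT1 (0.057) and IFIT2 (0.076) in MEL290 and of LIG1 (0.086), IRF1 (0.084), IFIT3 (0.057), IFI44 (0.082) and KDELR3 (0.055) in the difference, and ADAT2 gained a call in MEL290 (0.027).

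Values above 1e-10 and under 0.05 FPKM were worth about 0.71 to 1.7 fragments at the rough depth and carry no ordering of APOBEC3A, APOBEC3D and APOBEC3G. The lowest APOBEC3H value above 0, 0.144 FPKM in shA3B replicate 1, was worth about 3.3 fragments.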
